A study of Caenorhabditis elegans with 2 samples.

Results

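Intronic peaks of REC-8, away from annotated starts, were described from ChIP-seq (sequencing of DNA bound to an immunoprecipitated protein) of whole Caenorhabditis elegans. They numbered 2484 of the 12854 peaks on chromosomes I to IV, and of 18953 peaks in the whole relaxed list that the authors called on both replicates together. A peak was a member when its summit, the position of highest signal, lay in a protein-coding gene, in no exon, and over 500 bp from every protein-coding transcript start and every tRNA, snoRNA, snRNA, rRNA or miRNA gene. The worms were strain YL563, a single transgenic line in which REC-8 carried GFP and FLAG at its C terminus. Hermaphrodites were collected as young adults, 48 h after synchronization as starved L1 larvae that followed bleaching, and chromatin was sheared by sonication. The study's description names an antibody against GFP, while another label gives the antibody as rec-8. There was 1 group of 2 biological replicates, both of the same line, and 0 control libraries were analysed here. Sequencing depth is unknown, because the deposited lists give no reads.

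REC-8 is a kleisin, the subunit that closes the cohesin ring, and it is made for meiosis, where cohesin holds sister chromatids together and forms part of the chromosome axis. In these animals its known place of work is the germ line. Whole worms also hold muscle, neurons, gut and epidermis, so a peak found in few cells and a weak peak found in many cells cannot be told apart. Introns are removed from the transcript by splicing. In worms most are short, while long ones, often near the start of a gene, can hold regulatory elements or other genes.

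The sequences at the strongest members are printed because they carry the highest signals and differ in make-up. Each is 200 bases around the summit, on the + strand of WBcel235 (the assembly also called ce11), from RefSeq's copy of the genome. The first 6 are the members of highest signal with a summit in both replicates on the chromosomes printed, and the next 3 were picked after their values were seen. Capitals mark matches, on either strand, to a B box-like string (GTTCGANNC or GTTCAANNC) or to an A box-like string (TGG, any 3 bases, AG, any 1 base, then GG). These strings resemble the internal promoter elements of tRNA genes, and they were chosen after the sequences had been seen.
ari-1.4 IV:15526577-15526776: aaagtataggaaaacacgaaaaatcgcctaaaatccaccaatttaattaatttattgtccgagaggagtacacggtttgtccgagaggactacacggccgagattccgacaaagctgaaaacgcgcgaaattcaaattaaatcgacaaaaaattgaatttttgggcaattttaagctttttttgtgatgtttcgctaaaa
lips-10 II:8441594-8441793: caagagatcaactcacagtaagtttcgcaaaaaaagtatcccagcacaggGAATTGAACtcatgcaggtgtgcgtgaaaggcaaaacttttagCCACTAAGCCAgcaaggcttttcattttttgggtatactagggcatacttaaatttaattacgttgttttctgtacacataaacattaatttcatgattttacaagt
Y69A2AR.31 IV:2657438-2657637: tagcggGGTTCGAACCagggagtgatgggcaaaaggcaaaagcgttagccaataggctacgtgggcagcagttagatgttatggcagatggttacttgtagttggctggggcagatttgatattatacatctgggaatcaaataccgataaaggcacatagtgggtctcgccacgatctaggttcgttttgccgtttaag
Y105C5A.15 IV:15693345-15693544: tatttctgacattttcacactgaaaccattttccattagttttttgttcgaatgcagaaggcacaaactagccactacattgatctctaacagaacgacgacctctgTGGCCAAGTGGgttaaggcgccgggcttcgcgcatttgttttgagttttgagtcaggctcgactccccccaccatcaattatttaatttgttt
zip-7 IV:16503678-16503877: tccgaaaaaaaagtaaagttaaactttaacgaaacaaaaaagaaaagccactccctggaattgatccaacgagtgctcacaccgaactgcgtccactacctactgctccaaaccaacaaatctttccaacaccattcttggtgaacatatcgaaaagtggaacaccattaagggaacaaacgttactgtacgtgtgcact
Y57G11C.22 IV:14838245-14838444: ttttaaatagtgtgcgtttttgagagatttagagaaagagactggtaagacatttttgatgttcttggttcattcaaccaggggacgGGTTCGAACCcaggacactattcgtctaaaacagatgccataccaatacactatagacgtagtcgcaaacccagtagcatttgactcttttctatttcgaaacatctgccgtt
Y73F8A.26 IV:15476453-15476652: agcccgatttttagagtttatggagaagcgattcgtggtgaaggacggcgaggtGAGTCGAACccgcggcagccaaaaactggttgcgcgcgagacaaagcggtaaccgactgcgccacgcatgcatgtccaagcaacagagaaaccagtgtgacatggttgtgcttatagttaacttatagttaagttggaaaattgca
mdt-26 II:5661834-5662033: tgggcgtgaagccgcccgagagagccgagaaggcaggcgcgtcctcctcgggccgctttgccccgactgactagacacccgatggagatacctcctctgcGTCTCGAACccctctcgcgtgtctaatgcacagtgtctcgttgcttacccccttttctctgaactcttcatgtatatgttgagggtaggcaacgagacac
lin-42 II:1237942-1238141: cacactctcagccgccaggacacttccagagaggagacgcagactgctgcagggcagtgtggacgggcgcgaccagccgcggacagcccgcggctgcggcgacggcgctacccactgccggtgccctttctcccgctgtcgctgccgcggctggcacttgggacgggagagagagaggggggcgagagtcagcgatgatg

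Of the printed windows, those in lips-10, Y69A2AR.31, Y105C5A.15, Y57G11C.22, Y73F8A.26 and mdt-26 hold such a string, although the rule had kept every annotated tRNA gene over 500 bp away. The window in lips-10 holds both kinds on the - strand. The windows in ari-1.4, zip-7 and lin-42 hold neither. In ari-1.4, 72.5% of the bases are masked as repeats in the RefSeq genome, against 12.5% in lips-10. The GC content of the printed windows ran from 36% in ari-1.4 and lips-10 to 58.5% in mdt-26 and 70% in lin-42. A match describes the letters only and shows neither a gene nor a bound factor.

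Introns held fewer summits per base than exons or the surroundings of starts and small RNA genes. Members made up 19.3% of the peaks on chromosomes I to IV, whereas 27.5% of the bases there met the rule, a ratio of 0.702. Their density was 14.7 per 100 kb of such sequence, close to the 15.1 of intergenic sequence. It was 23.2 in exons, 30.1 near protein-coding starts and 67.4 near small RNA genes. Each replicate's own list gave the same order for introns against the genome, with ratios of 0.747 for replicate 1 (2855 peaks) and 0.756 for replicate 2 (3015 peaks). The 4 chromosomes were alike in density, at 13.8 per 100 kb on chromosome I, 15 on II, 15.6 on III and 14.3 on IV. Within each chromosome the middle of its length was denser than the arms. Over the 4 chromosomes the middle held 18.8 members per 100 kb and the arms 13.2, and the values were 21.9 and 15.1 in replicate 1 and 21.5 and 16.5 in replicate 2. Peaks are not replicates and there was 1 group, so shares are given with exact 95% binomial (Clopper-Pearson) intervals, which cover counting only, and with no test.

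The signal of most members was low. Signal, a value deposited by the authors, ranks peaks only within a list. Among the members it ran from 23.63 to 163.1, with a median of 29.65 and quartiles of 26.17 and 35.37. The median was 30.37 for intergenic peaks, 30.95 for exonic peaks, 32.66 for peaks at protein-coding starts and 51.31 for peaks at small RNA genes. A signal over 60 was reached by 46 members, or 1.85%, against 6.01% of all peaks on these chromosomes. A deposited q-value of 0.05 or less was held by 66 members (2.66%), against 7.84% of all peaks. Peaks on either side of the distance limit had close medians. Just inside it, the summits in klf-3, F36A2.3 and rps-9 lay 1, 2 and 2 bp past the limit and had signals of 24.88, 35.83 and 24.19. Just outside, those in ercc-1, Y56A3A.7 and spp-10 lay exactly at it and had signals of 25.07, 141.6 and 46.68. Over a wider range, 91 members up to 50 bp past the limit had a median of 30.35, and 89 peaks left out by up to 50 bp had 30.98.

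**Figure D1:**
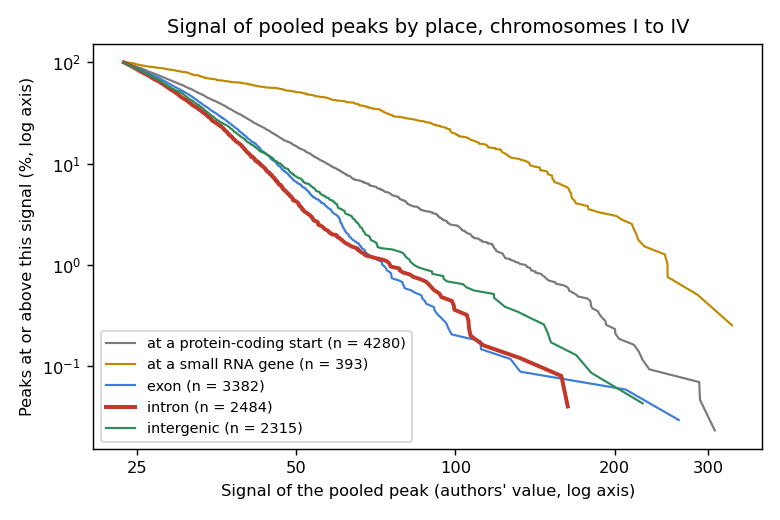
Share of pooled peaks on chromosomes I to IV (y axis, %, log) at or above each signal (x axis, authors' value, log), by place of the summit. The intron line (median 29.65) lies lowest over most of the middle of the range, and the small RNA line (median 51.31) lies above all others.

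The members were less often found in both replicates than peaks in general, and their share rose with signal. A replicate peak with a summit within 100 bp was present in replicate 1 for 1338 members (53.9%, interval 51.9 to 55.8), against 56.6 percent of all peaks on chromosomes I to IV. In replicate 2 it was present for 1114 members (44.8%, interval 42.9 to 46.8), against 50.2 percent of all. Both replicates had one for 429 members (17.3%, interval 15.8 to 18.8), against 23.2 percent of all, 20.3% of intergenic peaks, 20.8% of exonic peaks and 27% of peaks at starts. Replicate 1 alone matched 909 members, replicate 2 alone 685, and 461 (18.6%) had no match in either. For scale, 3.37% of the bases that met the rule lay within 100 bp of a summit of replicate 1, and 3.58% of a summit of replicate 2. The pooled list was called on the reads of both replicates, so a match is not an independent test of a member.

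Sorted by pooled signal into 10 equal classes (deciles) of all peaks on these chromosomes, the match in both replicates rose from 0.326% of 307 members in the lowest decile to 11.1% in the fifth and 75.3% of 97 members in the highest (interval 65.5 to 83.5). Exonic peaks of the same deciles gave 0.601%, 11.5% and 76.6% (interval 70.4 to 82.1 in the highest). In 9 of the 10 deciles, intronic and exonic shares lay within each other's intervals. The exception was the third decile, with 2.04% of intronic peaks (interval 0.753 to 4.39) and 5.67% of exonic peaks (interval 3.45 to 8.72). The members were spread unevenly over the deciles, with 12.4% in the lowest and 3.9% in the highest. Members matched in both replicates had a median pooled signal of 39.01, those matched in replicate 1 alone 29.49, in replicate 2 alone 29.31, and in neither 26.17.

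**Figure D2:**
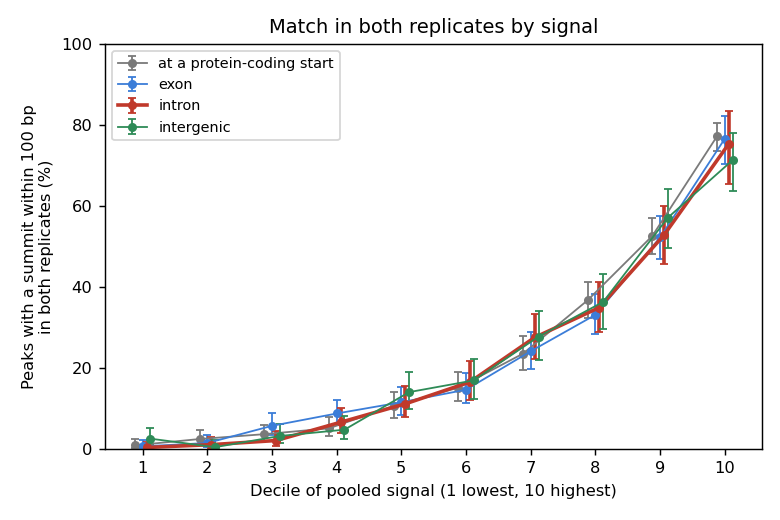
Share of pooled peaks with a summit within 100 bp in both replicates (y axis, %) by decile of pooled signal (x axis), for 4 places of the summit, with exact 95% binomial intervals. The intron line rises from 0.326% to 75.3% and runs among the other lines.

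Where both replicates had a peak, their signals went together only loosely. Over the 429 members, replicate 1 signals ran from 15.03 to 81.31 with a median of 21.12, and replicate 2 signals from 11.92 to 88.8 with a median of 16.83. Pearson's correlation of the log10 signals was 0.50 and Spearman's was 0.28. It is a description over members of the same pair of libraries, cut off below by each list's lowest value, and carries no p.

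**Figure D3:**
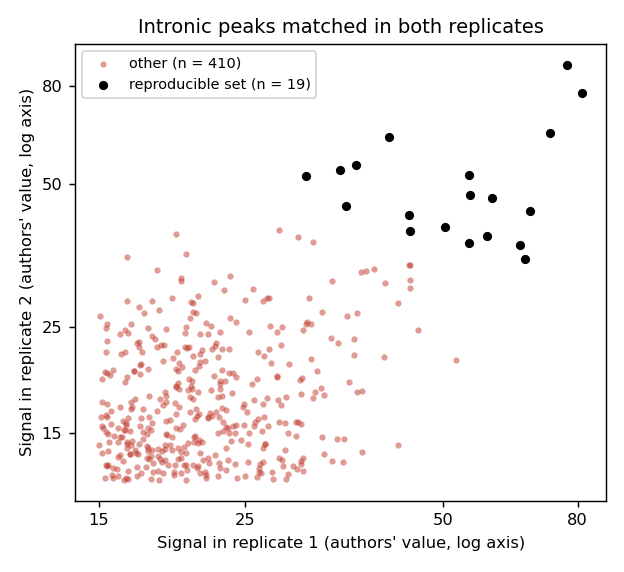
Signal of the 429 members matched in both replicates, replicate 1 on the x axis and replicate 2 on the y axis (authors' values, log axes). Black points are the 19 members of the reproducible set that were matched in both, and they lie at the upper right.

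Only 20 members (0.805%, interval 0.492 to 1.24) were in the reproducible set, against 2.79 percent of all peaks on these chromosomes. The authors chose that set from the pooled list by the irreproducible discovery rate (IDR), which compares how peaks rank in the replicates. Its share was 0.562% for exonic peaks, 1.21% for intergenic peaks, 4.23% at starts and 28% at small RNA genes. The lowest signal of the 20 was 82.16 and the highest among the other members was 79.57, so the set was the top of the signal order. Chromosome IV held 7 of them, I held 6, III held 4 and II held 3. Of the 20, 19 had a summit within 100 bp in both replicates, and the remaining one, in M01H9.5, lay 124 bp from its nearest summit in replicate 1 and 0 bp from that in replicate 2.

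The strongest member lay in the third of 6 introns of ari-1.4, a gene of the ariadne family of ubiquitin ligases. Its signal was 163.1 in the pooled list, 76.97 in replicate 1 and 88.8 in replicate 2. Its peak was the single one of 169 bp, whereas the other 2483 members were 430 bp wide with the summit in the middle. The member in lips-10, a lipase-related gene, had 158.6 pooled, 81.31 in replicate 1 and 77.44 in replicate 2, and lay in an intron of 198 bp, so that its peak reached exons. Y69A2AR.31 held a member of 132.5 pooled, 72.63 in replicate 1 and 63.91 in replicate 2. These 3 were high in both replicates, with ranks of 155, 125 and 178 in the list of replicate 1 and 100, 146 and 239 in that of replicate 2. In Y105C5A.15 the member lay in the first intron, 14103 bp long, with 113 pooled, 67.67 in replicate 1 and 43.76 in replicate 2. In zip-7, which encodes a basic leucine zipper protein, the member stood at 106.8 pooled, 41.41 in replicate 1 and 62.62 in replicate 2.

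The member in mdt-26, a subunit of the Mediator complex that links activators to RNA polymerase, had 99.57 pooled, 65.51 in replicate 1 and 37.18 in replicate 2. In let-526, which encodes a SWI/SNF nucleosome remodelling subunit, the values were 99.23, 54.89 and 47.2. In pbrm-1, a polybromo subunit of the same family of remodellers, they were 88.03, 36.91 and 54.77. In zfp-1, the worm relative of the human factor AF10, they were 82.16, 35.56 and 44.86. The replicates did not order these hosts alike, since mdt-26 was the highest of the 4 in replicate 1 and pbrm-1 in replicate 2. Other hosts were mod-5, a serotonin transporter (90.11 pooled, 44.41 and 42.88 in the replicates), pqn-41, a glutamine-rich protein (93.28, 54.68 and 37.49), and gei-4 (83.22, 44.53 and 39.7). The remaining reproducible members lay in Y57G11C.22 (106.1 pooled), T28F4.1 (105.8), Y73F8A.26 (105.1), Y47H9B.2 (98.46), M01H9.5 (94.09), trd-1 (91.2), C01B9.4 (89.09) and lmd-2 (85.93). Next in signal, and outside the set, were lin-42, the worm Period relative that times moults (79.57), ppfr-1, a regulatory subunit of protein phosphatase 4 (78.5), and twk-49, a potassium channel (78.35).

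Members lay closer to exons, and in shorter introns, than the bases open to the rule. Introns of up to 500 bp held 889 members, or 35.8%, against 24.6% of the bases, a ratio of 1.45. The ratio was 1.03 in introns over 500 and up to 1000 bp, 0.659 from there to 2000 bp, 0.724 from there to 5000 bp and 1.03 over 5000 bp. Introns over 1000 bp together held 1008 members (40.6%, interval 38.6 to 42.5), against 52.3% of the bases. The excess in short introns was seen in each replicate's own list, at ratios of 1.44 in replicate 1 and 1.3 in replicate 2, and so was the deficit between 1000 and 2000 bp, at 0.674 and 0.73. Counted once per member, the median intron length was 772.5 bp, and the lengths ran from 41 to 21230 bp. Matches in both replicates were found for 20.6% of the 345 members in introns over 5000 bp, against 17.3% of all members. These 2 shares were not tested or compared at equal signal.

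Distance to the nearest exon gave the same picture. Within 50 bp of an exon lay 705 members (28.4%), against 20.9% of the bases, a ratio of 1.35, and each replicate alone gave 1.4 and 1.24. The ratio fell to 1.1 from there to 200 bp, 0.781 to 500 bp and 0.703 to 1000 bp, and was 0.948 beyond 1000 bp. In 200 bp windows open to the rule, the median share of bases masked as repeats changed with distance too. It was 30.5% at 1 to 50 bp and 56% from there to 200 bp. Farther out it was 69% to 500 bp, 58% to 1000 bp and 40% beyond. Windows in introns over 1000 bp had 55%. Whether masked sequence has a part in the ratios by distance or by intron length was not tested. Because peaks were 430 bp wide, 1523 members (61.3%) reached an exon, with a median of 149 exonic bases, and 961 (38.7%) lay wholly in an intron. Whether the signal of the former came from the intron or the exon cannot be told apart. The median signal was 29.6 for peaks that reached an exon and 29.78 for those that did not.

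By order within the gene, members were spread much as the bases were. The first intron held 410 members (16.5%, interval 15.1 to 18), against 16.2% of the bases open to the rule. The second held 15.1% against 14.7%, the third 14.3% against 13.3%, and later introns together 54.1% against 55.8%. Last introns held 17.5% (interval 16 to 19.1) against 15.7%, and their share was 17.8% in replicate 1 and 18.6% in replicate 2. Among introns over 1000 bp, the ratio of members to bases was 0.972 in first introns and 0.71 in later ones (interval 0.665 to 0.756). Starts were still near many members, since 737 (29.7%) lay at most 1000 bp from one, against 23.7% of the bases. Order was taken from the longest transcript with an intron at the summit.

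**Figure D4:**
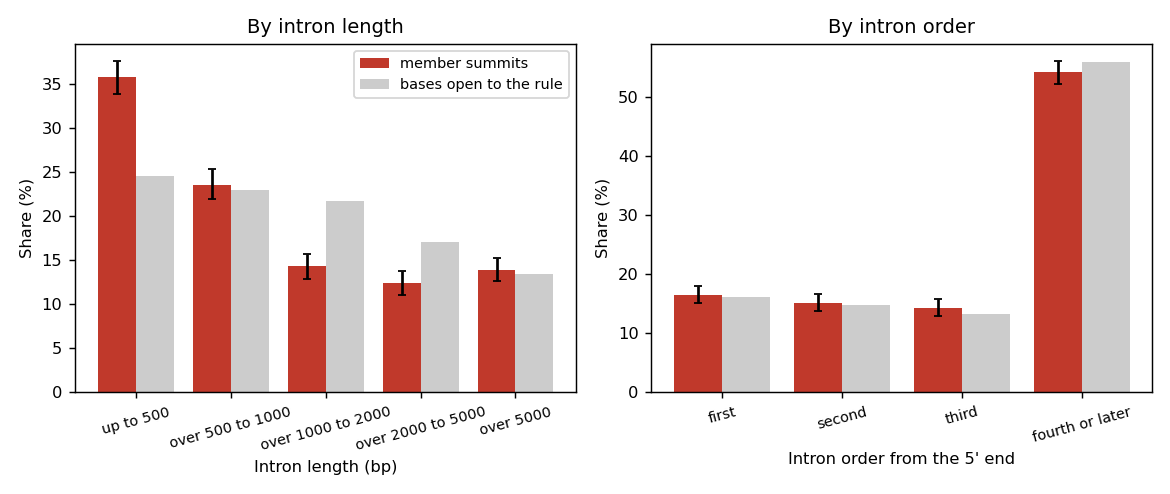
Share of the 2484 members (red, with exact 95% binomial intervals) and of the bases open to the rule (grey), in %, by intron length in bp (left) and by intron order from the 5' end (right). Introns up to 500 bp hold 35.8% of members and 24.6% of bases, and the bars by order lie within about 2 percentage points of each other.

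The members were spread thinly over many genes. They lay in 1796 of 9993 protein-coding genes with sequence open to the rule (18 percent), of which 1383 held 1 member, 261 held 2, 94 held 3 and 58 held 4 or more. Hosts offered more sequence than other genes did, with a median of 2.15 kb open to the rule, against 0.55 kb in genes without a member. The replicate lists had 2013 and 2070 hosts and shared 942, which is 46.8% of the hosts of replicate 1 and 45.5% of those of replicate 2. The overlap to be had from the amount of open sequence alone was not computed, so these shares cannot be called high or low. Of the introns, 2183 held a member, and 215 held more than 1. The peaks of 396 members (15.9%) overlapped another pooled peak. Counts per gene can therefore include overlapping calls of the same region, as in ppfr-1, and the intervals treat each call as separate.

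The gene with the most members was Y48C3A.5, with 13 in 5 introns and signals from 23.68 to 67.55. Its counts in the replicate lists were 12 and 13. The gene ncl-1, a regulator of nucleolar size, had 9 in 10 kb of open sequence, or 9 per 10 kb against 1.47 over all genes, and 10 and 8 in the replicates. The elongation factor gene ell-1 had 8, with 10 and 7 in the replicates. Counts of 7 were found in pqn-41, all in its intron of 10372 bp, in ppfr-1, in the sex-determination factor gene tra-1, and in mbk-2, a kinase of the oocyte-to-embryo switch. They were also found in mpz-1, a gene of PDZ domains. In replicate 1 and replicate 2 the counts were 6 and 8 for tra-1, 5 and 7 for pqn-41, 9 and 5 for mbk-2, 4 and 7 for mpz-1, and 9 and 2 for ppfr-1.

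The density of members in the genes listed for meiosis and cohesin had an interval that covered the density over all genes. In the list of meiosis and cohesin genes 12 of 52 held a member, with 16 members in all, or 1.81 per 10 kb (exact Poisson interval 1.03 to 2.93). Over all genes the density was 1.47 per 10 kb. The strongest of them was in dsb-3, a factor for meiotic double-strand breaks, with 43.7 pooled, 19.47 in replicate 1 and 21.47 in replicate 2. The next in this list were in rad-54.L, which acts in strand exchange (40.39 pooled), and capg-1, a condensin subunit (37.52 pooled). The list is not complete, since the meiotic gene him-19, with a member of 38.18 pooled, was not in it. Of the 16 members 1 (6.25%) was matched in both replicates, against 17.3% of all members. Germline RNA regulators had members in 6 of 49 genes at 1.54 per 10 kb (interval 0.565 to 3.35), among them glh-1, a Vasa-related helicase of germ granules (43.67 pooled), the poly(A) polymerase gene gld-2 (32.5) and lin-41 (26.49).

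The list of chromatin genes had 22 members in 18 of 50 genes, at 1.46 per 10 kb. Of the 22, 6 (27.3%) were matched in both replicates, against 17.3% of all members, including those in pbrm-1 and zfp-1 already given. The list did not hold let-526, which had 5 members, so its values are not those of all chromatin genes. A member in lin-1, an ETS factor of vulval signalling that was counted in this list, had 58.25 pooled, 37.67 in replicate 1 and 18.33 in replicate 2. Kinases and small GTPase regulators had 80 members in 35 of 86 genes, at 1.75 per 10 kb (interval 1.39 to 2.18), with the strongest in cdk-7 (55.11 pooled), pmk-1, the p38 kinase of immunity (55.03), and cdk-12 (51.36). Homeobox factors stood at 1.19 per 10 kb (15 of 57 genes), with ceh-62 (37), ceh-83 (36.94) and ceh-45 (34.5) as the strongest. By list, a member was held by 36% of chromatin genes, 40.7% of kinases and small GTPase regulators and 26.3% of homeobox factors. The shares were 23.1% for meiosis and cohesin genes and 12.2% for germline RNA regulators, against 18% of all genes.

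Lists of genes known from neurons, muscle and basement membrane had fewer members per 10 kb than all genes, 2 of them with intervals that did not reach 1.47. By the share of genes with a member they lay above the 18% of all genes, at 46.4% for axon guidance and adhesion, 31.6% for ion channels, 35.5% for synapse, 35.1% for muscle and 28.1% for basement membrane. Axon guidance and adhesion genes had 42 members in 26 of 56 genes, at 1.05 per 10 kb (interval 0.759 to 1.42), led by lad-2, an L1-type adhesion molecule (53.32), plx-1, a plexin (43.97), and unc-5, a netrin receptor (39.42). Ion channels had 66 members in 49 of 155 genes, at 1.3 per 10 kb, led by twk-49, tax-4, a channel of sensory neurons (50.08), and lgc-19 (45.96). Synaptic genes had 30 members in 22 of 62 genes, at 1.27 per 10 kb, 8 of them (26.7%) matched in both replicates, against 17.3% of all members. They were led by unc-43, the calcium/calmodulin kinase (57.49 pooled, 19.65 and 39.12 in the replicates), mgl-2, a glutamate receptor (45.28), and clhm-1 (42.07). Muscle genes had 26 members in 13 of 37 genes, at 1.29 per 10 kb, led by the dystrophin gene dys-1 (48.19), unc-87 (38.75) and the tropomyosin gene lev-11 (38.17). Basement membrane and related genes had 13 members in 9 of 32, at 0.796 per 10 kb (interval 0.424 to 1.36), led by lron-11 (42.12), the fibulin gene fbl-1 (40.29) and vab-10 (34.41). The interval of each list other than axon guidance and adhesion and basement membrane reached 1.47, and these lists were chosen with earlier results in view. The list densities were not matched for intron length. Over all members, density was 21.3 per 100 kb in introns up to 500 bp, 9.67 over 1000 to 2000 bp and 15.1 over 5000 bp. Matches in both replicates were 10% for kinases and small GTPase regulators, 11.8% for homeobox factors and 0% for germline RNA regulators. They were 11.9% for axon guidance and adhesion, 10.6% for ion channels, 7.69% for muscle and 15.4% for basement membrane. The match shares of all the lists rest on small counts, carry no interval and were not compared at equal signal.

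Members were richer in G and C than introns in general, and the strongest members were the richest. In 200 bp around the summit the median GC content was 35.5% (quartiles 30.5 and 41.5), against 33% (28.5 and 38.5) for windows open to the rule. It was 35.5% and 36% in the flanks 1000 bp to either side. These flanks were not limited to introns and can lie in exons, so they are not a like comparison. In the top decile of signal it was 44%, and in the reproducible members 48.5%. Windows with 50% GC or more held 186 members (7.49%), against 1.75% of open windows, a ratio of 4.28, and the share was 6.27% in replicate 1 and 5.44% in replicate 2. Of these 186, 26.3% were matched in both replicates, against 17.3% of all members. Their median signal was 35.48, against 29.65 for all members, and the match was not compared at equal signal. At 1 to 50 bp from an exon the members and the open windows had the same median of 35.5%, while beyond 1000 bp the members had 40% and the windows 35%. The share of masked bases was lower in members, with a median of 38% against 50.5%, and 12% in the reproducible members.

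Short strings were sought on either strand in the same windows. The GA repeat GAGAGA was in 278 members (11.2%, interval 9.98 to 12.5) and in 8.15% of open windows. In the top decile of signal it was in 26 of 97 members (26.8%), and in the reproducible members in 8 of 20. CCGCCC was in 6.12% of members and 3.44% of windows, and TTCGCGC in 2.58% and 1.47%. The string GGTTCGA, which overlaps the B box-like string, was in 1.53% and 1.25%. The share was 2.82% against 3.01% for CATATG and 7.69% against 7.21% for the telomere-repeat unit TTAGGC. An A box-like or B box-like string was in 144 members (5.8%, interval 4.91 to 6.79) and in 4.72% of windows. It was in 13 of 97 members of the top decile (13.4%, interval 7.33 to 21.8) and 8 of the 20 reproducible ones, where lmd-2 and C01B9.4 joined the 6 hosts named beside the sequences. Below the top decile its share ran from 4.15% to 9.09% with no steady rise. These strings were read off the strongest members, so their share in the top decile and in the reproducible members describes those members alone. Among the 77 members of the top decile outside the reproducible set, 5 held such a string (6.49%, interval 2.14 to 14.5), near the 4.72% of windows, while 18 held the GA repeat (23.4%, interval 14.5 to 34.4).

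**Figure D5:**
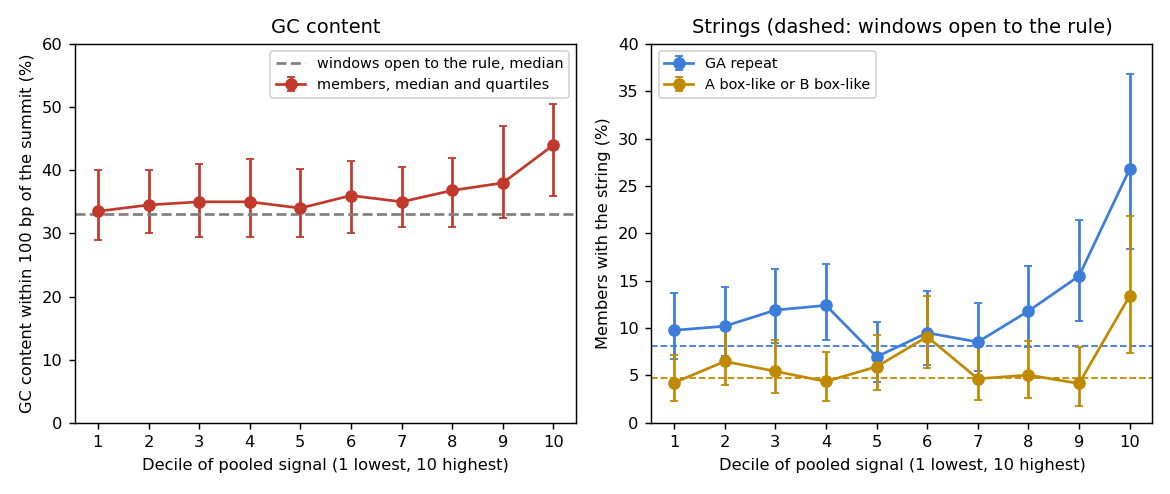
GC content of members in % (left, median and quartiles) and share of members in % with the GA repeat or with an A box-like or B box-like string (right, exact 95% binomial intervals), by decile of pooled signal. Dashed lines give the windows open to the rule, and the highest decile stands above them in GC content (44%) and GA repeat (26.8%). Its share of box-like strings (13.4%) includes the members from which these strings were read and is 6.49% without the reproducible ones.

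Few members lay near annotated genes of other kinds. Within 500 bp of a gene for a non-coding RNA (ncRNA) outside the classes of the rule lay 95 members (3.82%), against 3.96% of the bases. For piRNA genes, the small germline RNAs that are clustered on chromosome IV, the values were 4.47% and 5.79%. Of the reproducible members, 4 of 20 lay within 500 bp of an ncRNA, lincRNA, antisense RNA or pseudogene, namely those in T28F4.1, trd-1, C01B9.4 and pbrm-1. For all members the share near these same classes was 4.67%, against 4.77% of the bases.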

How the data were processed

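ChIP-seq peak lists on ce11 were used. Per the files' format, each peak carries a deposited signal value and a deposited q-value on the −log10 scale. Per the deposited notes, the authors made relaxed lists of peaks and background as input for IDR, for each replicate and for both pooled. A reproducible set was chosen from the pooled list, and a control file was used. Aligner, caller and the cut used in IDR were not given in the sources used here.

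Summits were placed with the Ensembl release 115 annotation of WBcel235, using scipy 1.17.1, pandas 2.3.3, numpy 2.4.6 and matplotlib 3.10.9 under Python 3.11.15. Background shares came from every base or, for introns, from every 50th base that met the rule. Of these grid bases 404 lay in no transcript's intron and were left out. Of the 338569 kept, 84643 gave the windows for sequence. The membership rule was checked against a direct reading of the annotation at random positions of chromosome III. Matching was run on simulated summits, and the assignment of intron order and length was not tested.

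The members and gene lists were chosen with earlier results of these data known. The genes named were the hosts of the 12 strongest and of the reproducible members, the 8 hosts with the most members, up to 3 hosts per list, and those at the distance limit. One host that the rule names is not reported here. The gene mpz-1, tied with mbk-2, and the members just below the reproducible set were named after their values were seen. Alternatives covered the distances, each replicate alone, ways to match and window sizes.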

Additional observations from a re-analysis of the deposited data

How the results depend on the processing

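Of 65 values under alternative settings, 34 were counted as unchanged and 31 as moved. Shares and medians were unchanged when within the error of the main value. Numbers of members and of host genes were judged by a wide margin instead, not by an error. By that margin 2976 members at 250 bp and 1722 at 1000 bp counted as unchanged, against 2484 in the main setting. The cause of a move was not tested except where the setting itself changes what is counted. With the limit at 250 bp from starts and small RNA genes, first introns held 22.1% of members and introns over 1000 bp 38.6%. At 1000 bp the values were 12% and 42.8%, and replicate 2 matched 42.6%. Taking the lowest order over all transcripts put 22.9% in first introns, and taking the gap between the exons of all transcripts put 36.9% in introns over 1000 bp. Among members whose whole peak lay in the intron, an alternative added after seeing the data, 78.5% lay in introns over 1000 bp. A peak of 430 bp cannot lie whole in a shorter intron, so the width of the peaks raises that share by itself. The matching shares of bases were not computed for these settings, so the values do not show where members were in excess. The share over 1000 bp was 40.3 to 43.4%, the number of members 2855 to 3015 and the median signal 15.18 to 19.2, on those lists' own scale, with each replicate left out. Among peaks above the median signal there were 1055 members, with a median signal of 36.72, matches of 69.5% in replicate 1, 60.6% in replicate 2 and 35.5% in both, and 1.9% in the reproducible set. Matches in replicate 1, replicate 2 and both were 44.6%, 35.9% and 10.7% within 50 bp, 65%, 56.8% and 31.4% within 250 bp, 67.6%, 60.1% and 35.9% by any overlap, and 63.2%, 55.2% and 28.9% by overlap of at least 50% of each peak. Median GC content was 34% in windows of 100 bp and 36% in windows of 400 bp. No paired analysis was possible because there was 1 group. Depth is unknown, no control library was analysed here, most members had q-values far above 0.05, and the pooled list shares its reads with both replicates.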
